A study of Homo sapiens with 36 samples.

Results

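IMR90 ER:RAS is a line of human lung fibroblasts in which a RAS protein, joined to the hormone-binding part of the oestrogen receptor, stays idle until 4-hydroxytamoxifen (4OHT) is added. Active RAS then drives the fibroblasts into senescence, a lasting arrest with an inflammatory secretion. The comparison described here sets senescent, vehicle-treated cells that also received a caspase inhibitor against senescent, vehicle-treated cells that did not. It was chosen by the columns of the gene count table that carry these labels, which are 6 of the 36 libraries of the series, n = 3 in each group, and all genes were taken. Per the labels, both groups were cells of passage 14 that were grown in DMEM with 10% FBS, were given 100 nM 4OHT, were kept for 6 days with a change of medium on day 3, and then received vehicle for 36 h. The caspase inhibitor was on the cells overnight, and its name and dose are not given in the labels. The rest of the series covers proliferating vehicle cells and senescent cells given digoxin or ouabain, which are cardiac glycosides that block the sodium pump, all at 16 h and 36 h and also with the inhibitor at 36 h. The proliferating cells were given no 4OHT and the glycoside-treated cells 100 nM. Passage, serum, days of culture and medium change were the same in every group. The ER:RAS protein is driven by a transgene in every group, and the labels leave unsaid whether the line is 1 clone and whether replicates were grown as separate cultures, so p-values reflect library-to-library spread alone, possibly of technical origin.

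Caspases are proteases that cut other proteins after aspartate. Initiator caspases such as CASP8 and CASP9 are switched on at death receptors or at the apoptosome and cut executioner caspases, which dismantle the cell, while CASP1, CASP4 and CASP5 belong to inflammasomes. An inhibitor of caspases acts on these proteins and not directly on RNA, and senescent fibroblasts are known for surviving death signals and for secreting cytokines whose genes are driven by NF-kB.

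With the inhibitor, 9 of 41 secretory genes and 5 of 14 genes of NF-kB feedback fell, where 2.14% of all genes tested did. Higher were 9 of 29 lipid synthesis genes, 6 of 28 p53 targets and 4 of 9 xenobiotic response genes, against 5.27% of all. Of 10 caspase genes 0 passed the test, which is near the 7.41% of all genes that did. IL6, CSF2, CSF3, CXCL2 and TNFAIP3, which NF-kB drives, fell between 1.78-fold and 1.9-fold. CYP1B1, an enzyme that oxidises foreign and steroid compounds, rose 2.32-fold, and MSMO1, HMGCS1 and SC5D of sterol synthesis rose 1.57-fold, 1.49-fold and 1.49-fold. Of 18696 genes tested by the quasi-likelihood test of edgeR, 1385 passed a Benjamini-Hochberg threshold of 0.05 and are termed called, which is 7.41% of them. The 985 called higher made up 5.27% of the genes tested and the 400 called lower 2.14%. The counts of called list members below are to be set against these shares. The changes were small, with a median log2 change of 0.35 among the genes called higher and -0.38 among those called lower, and 36 of the called genes had an absolute log2 change of at least 1. Scaling by library size alone gave 482 genes higher and 657 lower, so the balance of directions depended on the scaling, and it moved the median of all genes by -0.065. Leaving out 1 of the 6 libraries gave between 527 calls, without inhibitor replicate 1, and 870, without inhibitor replicate 2.

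Library totals of the 6 libraries lay between 16895300 and 21446400 counts without the inhibitor and between 14075900 and 17150200 with it, within 10854400 to 21446400 over the series. Between 25697 and 28021 genes had a count without the inhibitor and between 23749 and 24597 with it. The share of counts from mitochondrially encoded messenger RNA was 5.93% to 6.06% without and 7.02% to 7.2% with the inhibitor, and that from mitochondrial ribosomal RNA 1.20% to 1.21% and 1.40% to 1.52%. The biological coefficient of variation common to all genes was 0.0260 when it was estimated from these 6 libraries and 0.0929 over all 36. The fit reported here is that of all 36 libraries, and a fit of the 6 alone called 5562 genes.

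The change with the inhibitor followed the GC content of the transcript. The 301 genes of up to 35% GC had a median log2 change of 0.27, and 67 of them were called higher and 0 lower. The median fell in every step of 5 percentage points, through 0.19, 0.10, 0.0098, -0.064, -0.15 and -0.21, and reached -0.24 in the 448 genes over 65% GC, of which 0 were called higher and 42 lower. Across the 18045 genes with a GC value, which are 96.5% of those tested, Spearman's rho between GC content and log2 change was -0.45. Genes are not independent replicates, so this is a description of the libraries.

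The trend was also measured library by library. The slope of a library's log2 CPM (counts scaled to library size), as the deviation from the gene mean of the 6 libraries, was 0.0624, 0.0783 and 0.0696 per 10 points of GC content in the libraries without inhibitor and -0.0910, -0.0521 and -0.0672 in those with it. The opposite signs of the 2 groups follow from taking deviations from the mean of the same 6 libraries. Only the difference between the groups is therefore informative. The groups did not overlap, and the difference of -0.14 gave p = 0.1 in a two-sided exact permutation test with n = 3 per group, the smallest p that 3 against 3 libraries allow. The inhibitor libraries also had lower slopes in proliferating cells (difference -0.11), in digoxin-treated cells (-0.061) and in ouabain-treated cells (-0.10), each again at p = 0.1 in the exact test and 0.1 after adjustment over the 4. The extraction or library preparation day is not given in the labels, so that treatment and handling cannot be told apart.

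**Figure D1:**
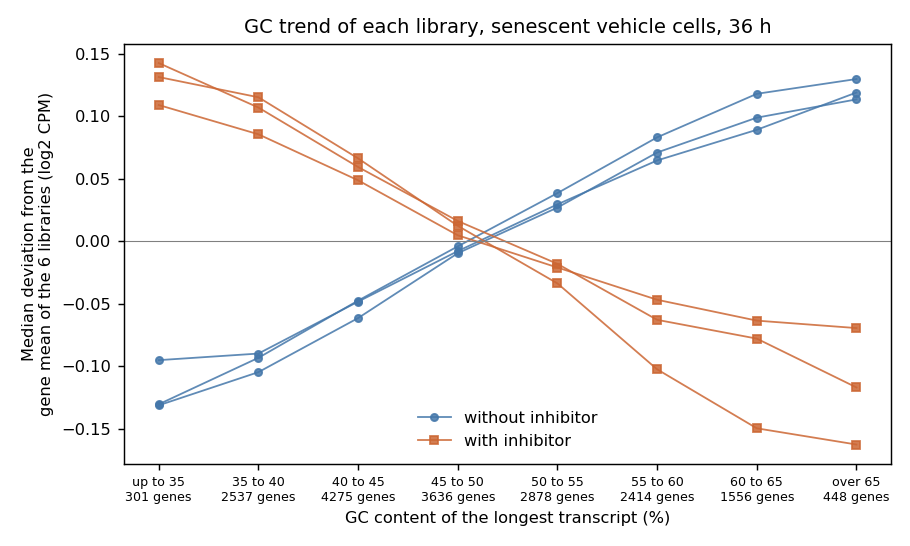
Median deviation of log2 CPM from the gene mean of the 6 libraries, by GC content of the longest transcript, with 1 line per library of senescent vehicle cells at 36 h (circles without and squares with the caspase inhibitor). The lines of the 2 groups cross near the 45 to 50% bin, and inhibitor libraries lie above the others at low GC content and below them at high GC content.

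With a correction for the trends of each library with GC content and transcript length, 301 genes were called, which is 1.61% of those tested, 230 higher (1.23%) and 71 lower (0.38%). Of the 1385 genes called without the correction, 240 were also called with it in the same direction, 183 higher and 57 lower. The sign of 8 of the 1385 turned with the correction. A gene below is said to have lost its call with the correction where its corrected adjusted p was above 0.05.

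The caspase genes themselves showed no called change in RNA. As 7.41% of all genes tested were called, a count of 0 among 10 is near that share. Of the 10 caspase genes tested, 0 rose and 0 fell, with a median log2 change of 0.0014 against 0.0016 over all genes, and 0 were called with the correction. DESeq2 called 0 of them, and 1 had an unadjusted p under 0.05 in edgeR. The fit of the 6 libraries alone called 1 higher and 1 lower (0 and 2 with the correction), and a fit of the 36 h libraries 1 higher. CASP8, the initiator at death receptors, stood at 14.3, 12.6 and 12.4 CPM in the 3 libraries without inhibitor and at 13.2, 12.5 and 13.5 CPM in those with it, and CASP9, the initiator at the apoptosome, at 8.65, 8.46 and 8.08 CPM and 8.5, 8.39 and 8.38 CPM. The groups overlapped for both of these genes. The widest log2 change among caspases above 1 CPM was that of CASP2, 0.25 ± 0.12, with an adjusted p of 0.209 in edgeR's test.

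Among the regulators around caspases, XIAP, which binds and blocks caspases, rose. Its level was 94.6, 100.3 and 95.4 CPM without and 121, 129 and 128 CPM with the inhibitor, every inhibitor library above every other, as in 22.2% of all genes tested, with a log2 change of 0.38 ± 0.084 (SE) and an edgeR adjusted p of 0.00408. XIAP has a GC content of 39% and lost its call with the correction (log2 change 0.18, adjusted p 0.15). BIRC5, which is survivin, an inhibitor of apoptosis made in dividing cells, fell from 1.31, 1.75 and 0.941 CPM to 0.274, 0.784 and 0.636 CPM, with no overlap, as in 17.4% of all genes tested in that direction. Its log2 change was -1.18 ± 0.30 (adjusted p 0.0108, 0.0401 with the correction), and the call was lost without replicate 2 of the vehicle group or replicate 1 of the inhibitor group, at adjusted p values of up to 0.107. The other 15 of the 17 genes tested in this list did not pass the test. They include APAF1 and CYCS, which form the apoptosome, CFLAR, which restrains CASP8, and BIRC3.

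In the BCL2 family 2 of 12 death-promoting members rose and 0 fell, where 5.27% of all genes tested rose and 2.14% fell. BMF, which frees death effectors by binding BCL2-type proteins, rose from 4.54, 4.78 and 4.36 CPM to 7.68, 6.6 and 6.24 CPM, with a log2 change of 0.58 ± 0.17 and an edgeR adjusted p of 0.0284, and held its call with the correction (0.0185). Leaving out 1 library ended the BMF call in 5 of 6 cases (adjusted p up to 0.16). BNIP3L, a receptor of mitochondrial autophagy, rose by 0.35 ± 0.087 on the log2 scale (adjusted p 0.0104, 0.439 with the correction, and up to 0.0602 without 1 library). Of 5 survival members 1 fell, BCL2A1, an NF-kB target, from 8.21, 9.06 and 8.0 CPM to 6.51, 5.65 and 5.32 CPM, and it held its call with the correction (log2 change -0.62, adjusted p 0.00386). It lost it without 3 of the 6 libraries, at up to 0.0786.

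Other routes of death and alarm gave few calls in the fit of all 36 libraries, in which 7.41% of all genes tested were called. The counts of 0 of 11, 1 of 12 and 1 of 13 genes below are near that share. Of 11 necroptosis and pyroptosis genes 0 were called by edgeR and 0 by DESeq2, 0 had an unadjusted p under 0.05, and MLKL, the pore former of necroptosis, stood at 17.7, 16.8 and 16.8 CPM and 11.9, 12.5 and 13.9 CPM with an edgeR adjusted p of 0.271. The MLKL groups did not overlap, as in 17.4% of all genes tested in that direction. The fit of the 6 libraries called 1 gene of this list higher and 1 lower (0 and 1 with the correction). A fit of the 36 h libraries called 1 lower. Of 12 death receptor genes 1 fell, the TNF receptor TNFRSF1B, with a log2 change of -0.60 ± 0.15 that lost its call with the correction (0.123). Of 38 interferon-stimulated genes 0 were called by edgeR and 3 by DESeq2, with 5 at an unadjusted p under 0.05, at a median log2 change of 0.032 without and -0.077 with the correction. IFIT1, one of them, stood at 1.26, 2.76 and 3.16 CPM without and 1.78, 3.92 and 1.5 CPM with the inhibitor, and the groups overlapped. Of these 38 genes the fit of the 6 libraries called 3 higher and 2 lower (1 and 2 with the correction), and the 36 h libraries 3 and 1. Of 13 genes of cytosolic nucleic acid sensing 1 rose, the interferon receptor gene IFNAR1 (log2 change 0.28 ± 0.069, adjusted p 0.00907, 0.219 with the correction).

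The secretory genes of senescence fell in part. Of 41 tested, 9 fell and 1 rose, EREG, a growth factor of the EGF family, and the median log2 change was -0.22 against 0.0016 over all genes. With the correction 10 fell and 0 rose, and the median was -0.20. Leaving out 1 library gave between 5 genes lower, without inhibitor replicate 3, and 8. The count of lower genes was 16 with scaling by library size alone, 17 in the 36 h libraries and 23 (with 3 higher) in the fit of the 6 libraries, with or without the correction. Secretory genes had a median GC content of 45.6%, near the 47.4% of all genes tested.

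IL1B, a cytokine that CASP1 cuts to its active form, was at 252, 221 and 222 CPM without and at 157, 161 and 153 CPM with the inhibitor. Every inhibitor library was below every library without it, as in 17.4% of all genes tested. The 1.48-fold fall (log2 change -0.56 ± 0.10, n = 3 per group) had an edgeR adjusted p of 3.71e-04 and 4.95e-04 with the correction. IL6, a cytokine of fever and of the acute phase, fell from 14.7, 13.4 and 13.6 CPM to 8.09, 7.84 and 7.51 CPM, again with no overlap, a log2 change of -0.83 ± 0.20 (adjusted p 0.00774, 0.0119 with the correction). IL1A, which acts on the same receptor as IL1B, stood at 36.1, 31.2 and 32.8 CPM and 31.1, 34 and 33.7 CPM, the groups overlapped, and its adjusted p was 0.961.

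The colony-stimulating factors fell by like amounts. CSF3, which drives neutrophil formation, went from 10.9, 9.43 and 9.79 CPM to 5.28, 5.65 and 5.09 CPM, a log2 change of -0.91 ± 0.14 with an edgeR adjusted p of 8.18e-05. CSF2, the factor for granulocytes and macrophages, went from 6.35, 5.01 and 4.66 CPM to 2.81, 3.02 and 2.6 CPM, a log2 change of -0.92 ± 0.19 (adjusted p 0.00279). In both genes the groups were apart, as in 17.4% of all genes tested, and both held their calls with the correction (0.00381 and 0.0157). Both are among the 12 largest falls, which were taken only from genes with no overlap.

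Among the neutrophil chemokines, CXCL2 fell from 6.57, 4.55 and 5.99 CPM to 3.02, 3.36 and 2.6 CPM and CXCL3 from 26.4, 23.6 and 25.2 CPM to 14.8, 15.8 and 14.5 CPM. CXCL1 fell from 41.8, 31 and 32.6 CPM to 24.5, 21.8 and 17.7 CPM, with an edgeR adjusted p of 0.0235 that was 0.0539 with the correction, and it lost its call without 4 of the 6 libraries, at up to 0.14. CXCL3 lost its call without inhibitor replicate 1 or 3, at up to 0.0545, and CXCL2 in none of the 6 cases. CXCL1, CXCL2 and CXCL3 are near-identical copies, and how the counting split reads between them is not known, so their separate values are uncertain. CXCL8, another neutrophil chemokine, stood at 787, 654 and 672 CPM and 478, 477 and 459 CPM, all inhibitor libraries below the others, as in 17.4% of all genes tested. Its log2 change was -0.58 ± 0.19 with an adjusted p of 0.0596, and with the correction, -0.79 and 0.00942, at a GC content of 33.4%. CXCL5 and CCL20, which attracts lymphocytes and dendritic cells, also fell, with log2 changes of -0.65 ± 0.20 and -0.69 ± 0.19 (adjusted p 0.0396 and 0.0231), and both held their calls with the correction.

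The proteases and matrix regulators of the secretory list did not pass the test. MMP1, a collagenase, stood at 5970.3 CPM without and 5481 CPM with the inhibitor on average (adjusted p 0.571), and MMP3, a stromelysin, at 737 CPM and 609 CPM (adjusted p 0.135). GDF15, a stress cytokine, stood at 156, 158 and 161 CPM and 154, 163 and 160.2 CPM with overlapping groups.

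Genes of NF-kB feedback, which NF-kB itself drives, fell in part: 5 of 14 were called lower and 0 higher, with a median log2 change of -0.24, and 3 were called lower when any 1 library was left out. With the correction 3 were called lower at a median of -0.14, the median GC content of these genes being 53.8%, and the fit of the 6 libraries called 10 lower and 1 higher (6 and 0 with the correction). TNFAIP3, which encodes A20, a brake on NF-kB, was at 25.9, 22.6 and 25.3 CPM without and at 14.1, 13.6 and 13.4 CPM with the inhibitor. The groups did not overlap, as in 17.4% of all genes tested in that direction. The 1.8-fold fall (log2 change -0.85 ± 0.11) had an edgeR adjusted p of 1.27e-05 and 3.34e-05 with the correction. NFKBIZ, which encodes a nuclear co-regulator of NF-kB, went from 90.3, 75.9 and 84 CPM to 62.7, 59.5 and 61.8 CPM, and TNIP1, which works with A20, from 173, 160.3 and 159 CPM to 123, 122 and 119 CPM. Both held their calls with the correction. NFKBIA, the classical inhibitor of NF-kB, fell with a log2 change of -0.31 ± 0.10 and an adjusted p of 0.0482, and RELB, an NF-kB subunit, with a log2 change of -0.39 ± 0.12 and an adjusted p of 0.0465, and both lost their calls with the correction (0.269 and 0.641). NFKB1 and NFKB2, which encode other subunits, did not pass the test (adjusted p 0.547 and 0.141).

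**Figure D2:**
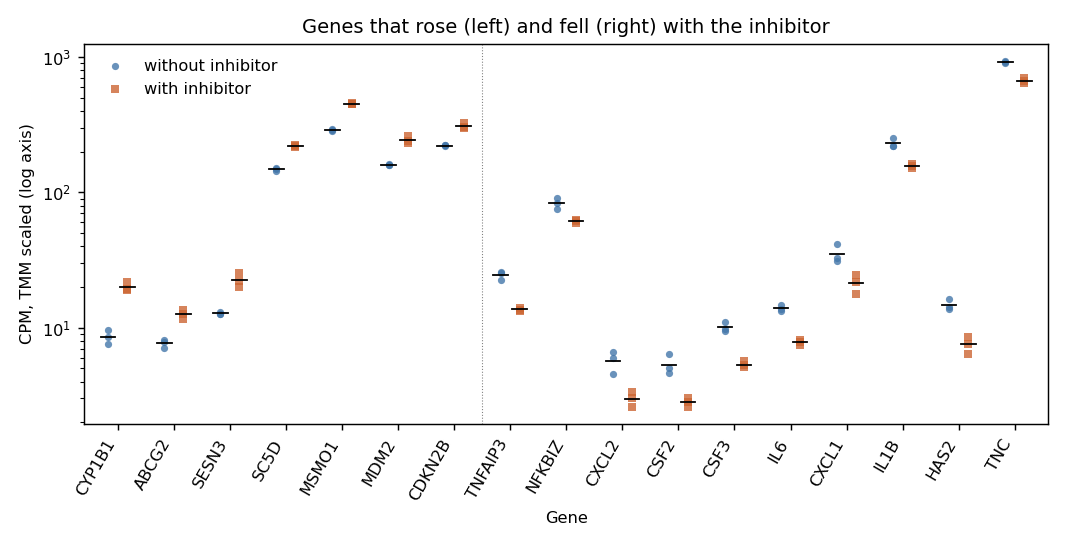
CPM of each library on a log axis for genes that rose (left of the dotted line) and that fell (right) with the caspase inhibitor in senescent vehicle cells, with circles without and squares with the inhibitor and a black bar at the mean of the 3 libraries. In each of the 17 genes the 3 inhibitor libraries lie on 1 side of the 3 others, as in CYP1B1 (8.54, 7.64 and 9.58 CPM against 21.6, 19.4 and 19.1 CPM). Many of these genes were named by a rule that required no overlap, so their separation follows from the choice. Of all genes tested, 22.2% were apart in the higher and 17.4% in the lower direction.

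The promoters of these genes are shown because most of them carry a match to the NF-kB consensus, the site at which the factor binds. The 9 secretory and 5 feedback genes that fell are 14 genes, of which 12 matched an entry of the RefSeq promoter table (build GRCh38.p14, 250 bases before to 50 after the annotated start, first entry of a gene). Of these 12, 9 held a match on either strand, as did 6 of the 30 with an entry among the 40 tested members of the same lists that were not called lower, and 11.3% of all 35116 promoters of the same length. Both lists were drawn up from genes known as NF-kB targets or as part of the inflammatory secretion, so these shares are not independent of how the lists were chosen. No match was found in the 300 bases of IL1B, CSF2 and TNIP1, which says only that these letters are not in these windows, and that of NFKBIZ lies 223 bases before its start. Below are 120 bases, from 110 before to 10 after the start, for the other 8, 5′ to 3′ on the gene's strand, with matched letters in capitals. Matches that overlap on both strands appear as 1 run.
CXCL1 (chr4:73869283-73869402, plus strand): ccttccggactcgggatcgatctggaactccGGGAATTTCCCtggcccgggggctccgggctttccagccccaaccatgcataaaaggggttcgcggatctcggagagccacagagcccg
CXCL2 (chr4:74099186-74099305, minus strand): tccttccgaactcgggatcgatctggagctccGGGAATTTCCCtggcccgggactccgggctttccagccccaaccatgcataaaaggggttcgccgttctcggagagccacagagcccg
CXCL3 (chr4:74038680-74038799, minus strand): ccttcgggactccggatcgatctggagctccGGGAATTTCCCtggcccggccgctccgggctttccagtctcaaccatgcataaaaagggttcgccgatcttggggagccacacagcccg
CXCL5 (chr4:73998668-73998787, minus strand): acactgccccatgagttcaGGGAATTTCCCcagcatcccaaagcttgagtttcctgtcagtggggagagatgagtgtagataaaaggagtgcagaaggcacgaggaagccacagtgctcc
IL6 (chr7:22727090-22727209, plus strand): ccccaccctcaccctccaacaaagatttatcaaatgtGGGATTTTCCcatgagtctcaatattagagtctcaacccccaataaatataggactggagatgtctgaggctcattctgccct
CCL20 (chr2:227813732-227813851, plus strand): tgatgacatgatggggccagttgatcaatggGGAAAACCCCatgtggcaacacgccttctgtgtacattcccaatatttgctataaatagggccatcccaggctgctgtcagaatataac
TNFAIP3 (chr6:137867149-137867268, plus strand): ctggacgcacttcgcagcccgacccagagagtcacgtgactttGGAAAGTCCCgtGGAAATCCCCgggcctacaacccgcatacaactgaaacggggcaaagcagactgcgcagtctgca
NFKBIA (chr14:35404740-35404859, minus strand): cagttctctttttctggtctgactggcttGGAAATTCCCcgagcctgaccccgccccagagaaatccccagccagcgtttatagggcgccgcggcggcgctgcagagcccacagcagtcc

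CXCL1, CXCL2 and CXCL3 hold overlapping matches on opposite strands 77 to 79 bases before the start in nearly the same surrounding letters, and CXCL5 holds such a pair 90 to 91 bases before. TNFAIP3 holds 2 separate matches, 67 and 55 bases before the start. The genes were taken because they fell, and a match is a description of the letters, not evidence of binding.

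Of the 9 xenobiotic response genes tested, 4 rose and 0 fell, with a median log2 change of 0.38, and the same count was found with the correction and without any 1 library. CYP1B1 was at 8.54, 7.64 and 9.58 CPM without and 21.6, 19.4 and 19.1 CPM with the inhibitor. Its log2 change of 1.22 ± 0.15 had an edgeR adjusted p of 7.88e-06, and 1.12 and 4.70e-05 with the correction, and all inhibitor libraries were above the others. ABCG2, a pump that exports drugs, rose from 7.11, 8.05 and 7.87 CPM to 12.7, 11.6 and 13.6 CPM, TIPARP, a target and brake of the aryl hydrocarbon receptor, from 102, 104 and 106 CPM to 137, 132 and 138 CPM, and NQO1, which detoxifies quinones, from 241, 253 and 241 CPM to 317, 311 and 340.2 CPM. In each the groups did not overlap, as in 22.2% of all genes tested in that direction. AHRR, the repressor of the same receptor, stood at 19.1 CPM without and 20.1 CPM with the inhibitor and did not pass the test (adjusted p 0.77). CYP1A1 was at 0.512 CPM without and 0.744 CPM with the inhibitor and did not pass either (adjusted p 0.485).

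Of the 29 genes of cholesterol and fatty acid synthesis, 9 rose and 0 fell, with a median log2 change of 0.16, and 6 rose with the correction, at a median of 0.22. Between 7 and 8 rose when 1 library was left out. HMGCS1, an early enzyme of the pathway, was at 142, 144 and 142 CPM without and 219, 212 and 208 CPM with the inhibitor. IDI1, which isomerises the isoprenoid unit, rose by 0.56 ± 0.11 on the log2 scale (edgeR adjusted p 0.00177). MSMO1, a sterol oxidase late in the pathway, went from 288, 283 and 294 CPM to 454, 449.95 and 455 CPM, with a log2 change of 0.65 ± 0.084 and an adjusted p of 8.95e-06 (2.97e-04 with the correction). SC5D, a sterol desaturase, went from 144, 149.5 and 151 CPM to 221, 218 and 225 CPM. In MSMO1, SC5D and HMGCS1 the 3 inhibitor libraries lay above all others, as in 22.2% of all genes tested.

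Of the transport and fatty acid members, STARD4, which carries cholesterol within the cell, rose by 0.47 ± 0.065 and lost its call with the correction (0.0789). SCD, which desaturates fatty acids, rose by 0.42 ± 0.083 and FADS2, another desaturase, by 0.32 ± 0.078, and both held it (0.00163 and 6.76e-04). SREBF2, which encodes the sterol-sensing transcription factor, did not pass the test (log2 change 0.002 ± 0.082), and FASN, the fatty acid synthase, stood at -0.03 ± 0.14.

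Of the 28 p53 target genes, 6 rose and 0 fell, with a median log2 change of 0.11, and 3 rose with the correction. MDM2, the ubiquitin ligase that restrains p53, went from 159, 161 and 159.6 CPM to 261, 240.3 and 232 CPM, with a log2 change of 0.61 ± 0.11, an edgeR adjusted p of 2.96e-04 and 3.34e-05 with the correction. TP53INP1 went from 79.8, 76.4 and 81 CPM to 125, 119.9 and 119 CPM and ZMAT3, an RNA-binding target of p53, from 239, 230.2 and 232 CPM to 348, 327 and 320.4 CPM, and both held their calls with the correction. RRM2B, which supplies nucleotides for repair, rose by 0.44 ± 0.073 and, with SPATA18 and CCNG1, lost its call with it (0.176). CDKN1A, the main p53 target of the arrest, stood at 1431, 1451 and 1442 CPM and 1408, 1536 and 1513 CPM with overlapping groups, and the death-promoting targets BAX and BBC3 did not pass the test (adjusted p 0.208 and 0.436).

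Of 7 CDK inhibitor genes 1 rose, where 5.27% of all genes tested rose and 2.14% fell. CDKN2B, the CDK4 and CDK6 inhibitor p15, rose from 224, 223 and 219 CPM to 327, 305 and 299.96 CPM with no overlap, as in 22.2% of all genes tested. Its log2 change was 0.49 ± 0.066 with an edgeR adjusted p of 1.96e-05 (5.42e-04 with the correction). Its neighbour CDKN2A, which encodes p16 and ARF, stood at 46.6, 48.4 and 52.8 CPM and 46.3, 54.8 and 50.6 CPM. Of 31 cell division genes 0 were called by edgeR and 0 by DESeq2, 4 had an unadjusted p under 0.05, and MKI67, a marker of cycling cells, stood at 1.92, 2.62 and 2.78 CPM and 1.23, 1.62 and 1.27 CPM with an adjusted p of 0.185. The MKI67 groups did not overlap, as in 17.4% of all genes tested in that direction. The fit of the 6 libraries called 4 cell division genes lower, with or without the correction. The 36 h libraries, no filter on low counts, and the replicate block with the correction each called 1 lower. Of 25 DNA replication genes 1 rose, near the 5.27% of all genes. It was PCNA, the replication clamp and also a p53 target, at 0.41 ± 0.11 (edgeR adjusted p 0.0197, 0.00455 with the correction). This call was lost without 4 of the 6 libraries, at up to 0.101. LMNB1, a lamina gene lost in senescence, stood at 1.37, 1.1 and 1.33 CPM and 1.58, 0.784 and 1.21 CPM.

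HRAS counts, in which the transgene and the cell's own gene cannot be told apart, were 1244, 1229 and 1233 CPM without and 1020.1, 1100.2 and 1068 CPM with the inhibitor. The 3 inhibitor libraries were lower, as in 17.4% of all genes tested. The log2 change of -0.22 ± 0.087 did not pass edgeR's test (adjusted p 0.133), and its sign turned with the correction (0.05, adjusted p 0.872), at a GC content of 65.8%. Of 17 genes of MAP kinase feedback, which respond to RAS signalling, 4 rose and 0 fell, where 5.27% of all genes tested rose and 2.14% fell. With the correction 0 were called. The 4 were SPRED1, a brake on RAS (log2 change 0.31 ± 0.062, edgeR adjusted p 0.00145), PHLDA1, DUSP10, a phosphatase of stress kinases, and ETV5, a transcription factor. DUSP6, the phosphatase of ERK, stood at 0.068 ± 0.078 (adjusted p 0.684). Of 28 immediate early genes 2 fell, NR4A1, an orphan nuclear receptor, from 2.68, 2.53 and 2.35 CPM to 1.1, 0.784 and 0.694 CPM, and JUNB, a subunit of AP-1, both lost with the correction (0.151 and 0.177), and NR4A1 also without any 1 of the 6 libraries. FOS and EGR1 did not pass the test (adjusted p 0.569 and 0.632).

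**Figure D3:**
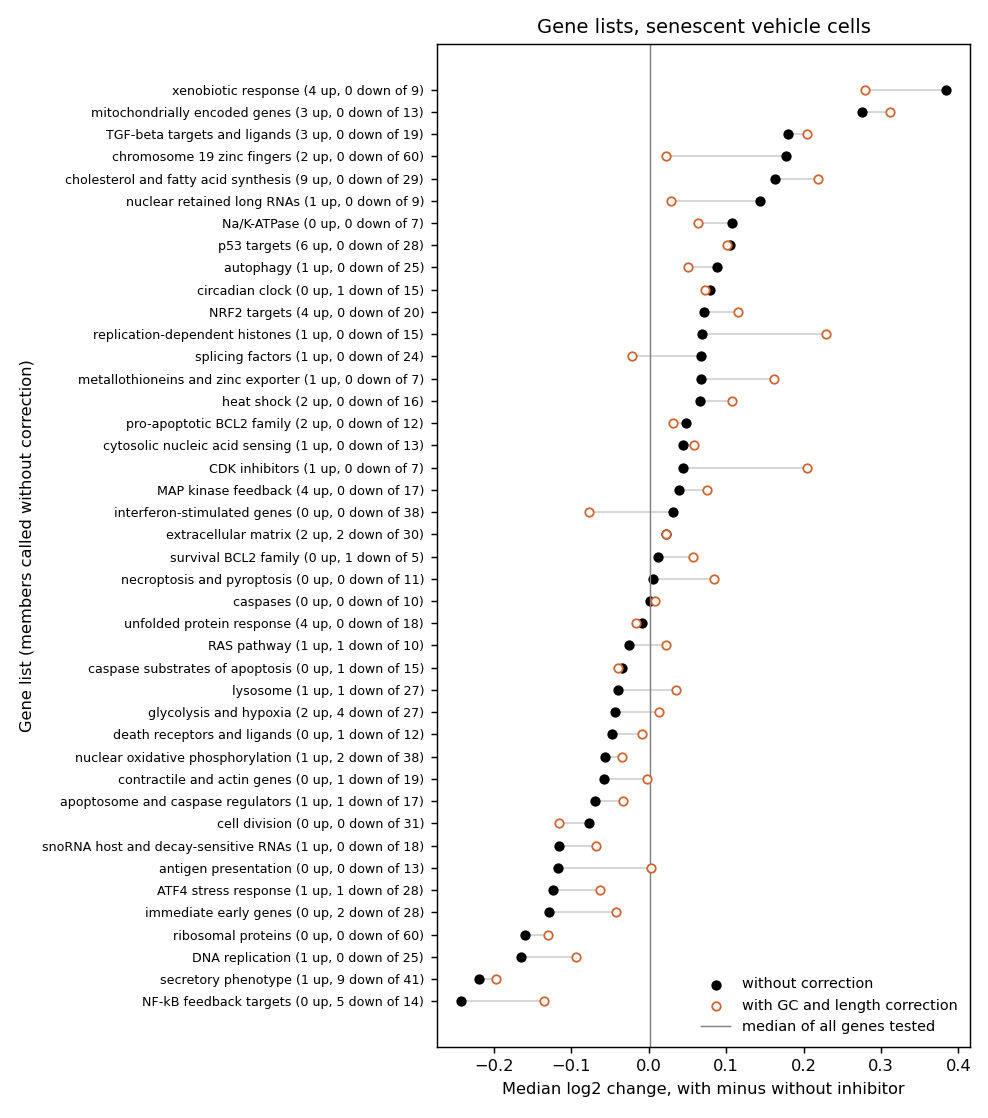
Median log2 change with minus without the caspase inhibitor for 42 gene lists in senescent vehicle cells, without (filled) and with (open) the correction for GC content and transcript length. The grey line marks the median of all genes tested (0.0016), and the labels give the members called without correction, as in 9 down of 41 for the secretory list.

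In the stress lists some genes were called, where 5.27% of all genes tested rose and 2.14% fell. Most of these calls were lost with the correction. Of 20 NRF2 targets, the genes of oxidative defence, 4 rose, NQO1, ME1, GCLM and SLC7A11, and with the correction NQO1 alone was called. HMOX1, a further target, stood lower without passing the test (log2 change -0.34 ± 0.13, adjusted p 0.117). Of 18 genes of the unfolded protein response 4 rose, led by DNAJB9, a chaperone of the endoplasmic reticulum (log2 change 0.44 ± 0.094, adjusted p 0.00287), and 1 was called with the correction. Of 28 ATF4 targets 1 rose, SLC7A11, and 1 fell, PHGDH, the first enzyme of serine synthesis, from 16.4, 14.7 and 14.9 CPM to 10.5, 11.9 and 10.6 CPM, which held its call with the correction (0.0333). Of 16 heat shock genes 2 rose, HSPH1 and DNAJB4, and 0 with the correction.

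Among 30 matrix genes 2 rose and 2 fell, where 5.27% of all genes tested rose and 2.14% fell. THBS1, thrombospondin, a binding protein of the matrix that activates TGF-beta, rose from 772, 781 and 793 CPM to 1097, 1119 and 1071 CPM, and TNC, tenascin C, a matrix protein of wounds, fell from 932, 919.8 and 909 CPM to 696, 665 and 645 CPM. Neither overlapped, as in 22.2% of all genes tested in the higher and 17.4% in the lower direction. The log2 changes were 0.49 ± 0.10 and -0.46 ± 0.11 with edgeR adjusted p values of 0.00286 and 0.00867, and both held their calls with the correction. LUM rose and COL6A2 fell, and both lost their calls with it (0.352 and 0.782). COL1A1, the main collagen, stood at 0.16 ± 0.11 (adjusted p 0.444). Of 19 TGF-beta genes 3 rose, TGFB2, a ligand, SKIL, a feedback repressor, and GREM1, a BMP antagonist, by 0.49 ± 0.091, 0.42 ± 0.082 and 0.19 ± 0.06, and all 3 lost their calls with the correction, while SKI, another repressor, was then called higher. GREM1 also lost its call without any 1 of the 6 libraries. HAS2, which makes hyaluronan, fell the most among genes of at least 5 CPM with no overlap, from 16.3, 13.8 and 14.3 CPM to 6.44, 8.56 and 7.63 CPM, a log2 change of -0.96 ± 0.16 with an adjusted p of 2.71e-04 and, with the correction, -1.17 and 4.70e-05.

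Of 27 glycolysis and hypoxia genes 4 fell and 2 rose, where 2.14% of all genes tested fell and 5.27% rose. The 4, PFKP, PFKL, ENO1 and PKM, are enzymes of glycolysis and lost their calls with the correction, and the 2, SLC2A1, the glucose transporter, and NDRG1, a hypoxia gene, kept theirs. Leaving out 1 library ended the NDRG1 call in 5 of 6 cases (edgeR adjusted p up to 0.104). Of the 13 mitochondrially encoded genes 3 rose, MT-ND4, MT-ND4L and MT-CO1, 12 had a positive log2 change, and the median was 0.28. With the correction the median was 0.31 and 0 were called, and without 1 library 0 or 1 were. Scaling by library size alone called 1 higher, DESeq2 4, the 36 h libraries 5, no filter on low counts 6, and the fit of the 6 libraries 12, with or without the correction. MT-ND4, a subunit of complex I, was at 11043, 11059 and 11296 CPM without and 14904, 14641 and 14996 CPM with the inhibitor (log2 change 0.42 ± 0.11, adjusted p 0.0154). Nuclear copies of mitochondrial genes may share these reads. Of 38 nuclear genes of oxidative phosphorylation 1 rose, SDHD of complex II, which held its call with the correction (0.00823), and 2 fell, CYC1 and NDUFV1, which lost theirs (0.542 and 0.337). Of 60 ribosomal protein genes 0 were called by edgeR and 0 by DESeq2, 7 had an unadjusted p under 0.05, and 58 had a negative log2 change, at a median of -0.16 and -0.13 with the correction. The count called lower was 2 at a filter of 5 CPM, 10 with no filter, 13 in the 36 h libraries and 54 in the fit of the 6 libraries (41, with 3 higher, with the correction). Of 60 chromosome 19 zinc finger genes, whose median GC content was 39.8%, 55 had a positive change, 2 rose, and the median went from 0.18 to 0.023 with the correction.

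By size, the genes of at least 5 CPM that rose the most without overlap were, after CYP1B1, an unnamed gene on chromosome 17 (ENSG00000259623), TLCD4, AMY2B, SLC2A12, SESN3, SLC14A1, CHRM2, F2RL2, ABCG2, CCDC68 and LIN7C, with log2 changes between 1.22 and 0.71. TLCD4 alone of these 12 lost its call with the correction (adjusted p 0.0553). SESN3, a stress-induced sestrin, went from 12.6, 13 and 12.6 CPM to 25.2, 22.3 and 19.9 CPM, SLC14A1, a urea transporter, from 15.9, 16.7 and 18.4 CPM to 29.4, 29.3 and 29.6 CPM, and F2RL2, a thrombin receptor, from 60.7, 59.2 and 57.6 CPM to 107, 94.2 and 92 CPM. CHRM2, a muscarinic acetylcholine receptor, went from 8.81, 10.03 and 10.1 CPM to 16.8, 17.2 and 14.6 CPM. In each of these the inhibitor libraries were all higher, as the choice of genes without overlap requires. AMY2B has near-identical copies, so its value is uncertain.

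The 12 that fell the most were HAS2, CXCL2, CSF2, CSF3, TNFAIP3, IL6, MRGPRF, BANF1P3, CXCL3, LCE1F, CXCL1 and CES1P1, with log2 changes between -0.96 and -0.71. LCE1F, a late cornified envelope gene known from skin, was at 11.1, 13.1 and 12.1 CPM without and 6.17, 8.45 and 7.22 CPM with the inhibitor, and with MRGPRF, BANF1P3 and CXCL1 it lost its call with the correction (0.104). BANF1P3 and CES1P1 are pseudogenes that may share reads with their parents. By smallest p, the called genes were led in the higher direction by REEP3, which shapes the endoplasmic reticulum (116, 108 and 111 CPM to 171, 162 and 167 CPM, adjusted p 8.37e-07), CCDC68, PALLD, an actin organiser (6.42e-06), CYP1B1, TMED7, a cargo receptor (7.88e-06), and CCNI (7.88e-06). In the lower direction they were TNFAIP3, ANPEP, an aminopeptidase (136, 138 and 134 CPM to 78.8, 92.9 and 92.4 CPM, adjusted p 6.66e-05), CSF3, PPP1R12C, TAGLN3 and EHD1. TAGLN3 went from 51.4, 52 and 50.5 CPM to 32.8, 33.6 and 33.1 CPM, again with no overlap, as in 17.4% of all genes tested.

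The other 3 kinds of cells, which share no library with these 6, were compared next. The inhibitor effect called 671 genes in proliferating vehicle cells (3.59% of those tested), 164 in digoxin-treated (0.877%) and 1662 in ouabain-treated senescent cells (8.89%). Of the 985 genes higher in senescent vehicle cells, 964 had the same sign in proliferating, 792 in digoxin-treated and 914 in ouabain-treated cells, and 360, 32 and 428 were called higher there, against 2.75%, 0.305% and 5.31% of all genes. Of the 400 lower genes, 355, 345 and 359 had the same sign, and 59, 33 and 131 were called lower, against 0.834%, 0.572% and 3.58%. All 4 comparisons carry the GC trend, so these shares were also taken with the correction. Then 220, 186 and 217 of 230 higher genes kept the sign, and of 71 lower genes 45 in proliferating, 58 in digoxin-treated and 57 in ouabain-treated cells did, where 54.6%, 50.7% and 52.2% of all genes tested had a positive change.

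In all 4 kinds of cells 17 genes were called higher and 1, DAPK3, lower, and DAPK3 lost its call in senescent vehicle cells with the correction (0.723). The 17 include CYP1B1, CDKN2B, CCNI, PALLD, REEP3 and, of lipid synthesis, SC5D, IDI1, SCD and STARD4. CYP1B1 rose by 0.65 ± 0.13 in proliferating, 0.89 ± 0.13 in digoxin-treated and 1.19 ± 0.13 in ouabain-treated cells on the log2 scale, beside 1.22 ± 0.15 in senescent vehicle cells. CDKN2B rose by 0.29 ± 0.072, 0.45 ± 0.07 and 0.65 ± 0.069. Of the lipid synthesis list 12, 5 and 14 members rose in the other 3 comparisons and 0, 1 and 2 fell.

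The inflammatory genes gave different counts in the 4 comparisons. Of the NF-kB feedback genes 0 fell in proliferating, 10 in digoxin-treated and 12 in ouabain-treated cells, and of the secretory genes 2, 8 and 16 fell while 2, 1 and 5 rose. Of all genes tested, 0.834%, 0.572% and 3.58% fell, so 0 of 14 in proliferating cells is near that share. Some secretory genes were near 0 in proliferating cells without the inhibitor, where a fall is hard to call. Among them were CSF2 (0.015 CPM), CSF3 (0.049 CPM), CXCL2 (0.10 CPM) and IL1B (0.63 CPM). The log2 change of TNFAIP3 was -0.10 ± 0.14 in proliferating cells (edgeR adjusted p 0.757), -0.92 ± 0.10 in digoxin-treated (1.98e-07) and -1.06 ± 0.10 in ouabain-treated cells (8.21e-09). That of IL6 was 0.60 ± 0.36 (0.384), -1.18 ± 0.16 (2.56e-05) and -1.46 ± 0.16 (2.05e-07). CXCL8 rose in proliferating cells by 1.25 ± 0.36 (0.0405), from 1.84 ± 0.737 CPM to 4.84 ± 4.34 CPM (SD, n = 3), levels far below those of senescent cells. The difference between the 2 states did not pass the test for any of these genes: its log2 value was -0.75 ± 0.18 for TNFAIP3 (adjusted p 0.216), -1.43 ± 0.41 for IL6 (0.735) and -1.83 ± 0.40 for CXCL8 (0.131).

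**Figure D4:**
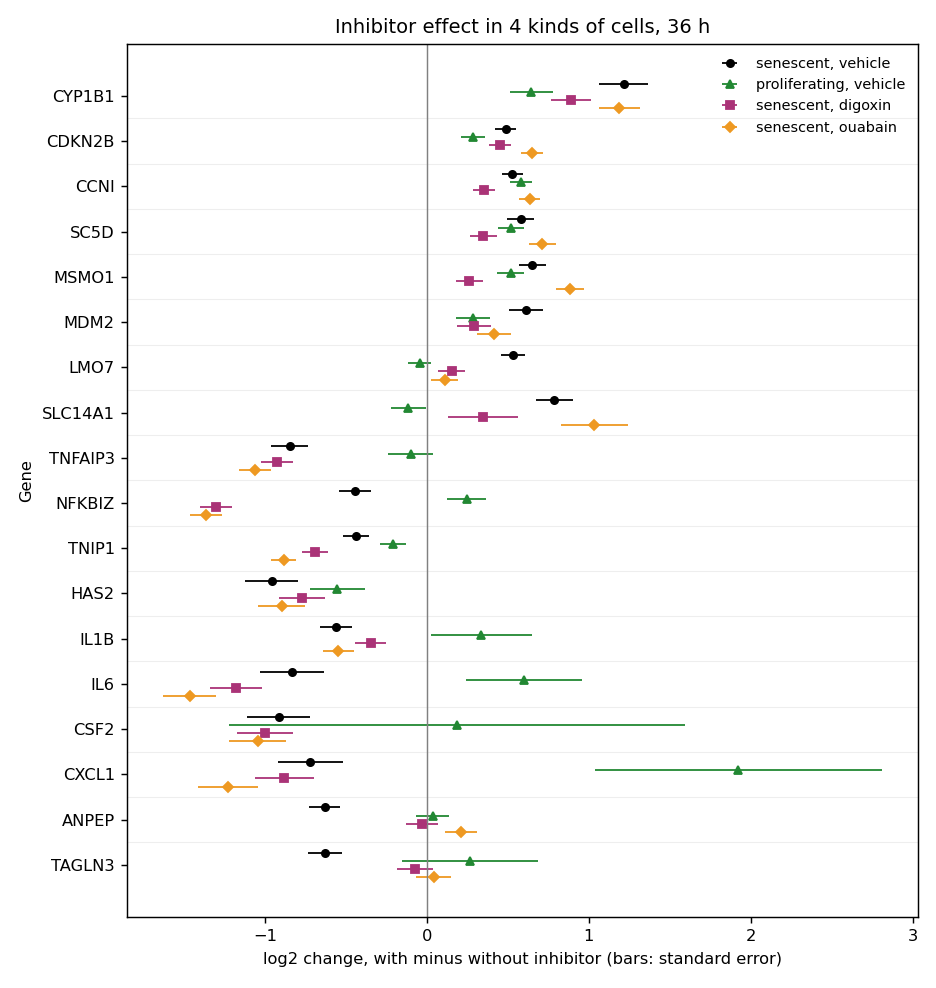
Log2 change with minus without the caspase inhibitor at 36 h, with its standard error, for 18 genes in senescent vehicle, proliferating vehicle, digoxin-treated and ouabain-treated senescent cells, n = 3 libraries per group. CYP1B1 lies above 0 in all 4, TNFAIP3 below 0 in the 3 senescent kinds at -0.85, -0.92 and -1.06, and ANPEP and TAGLN3 lie well below 0 in senescent vehicle cells.

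Tests of the difference itself called few genes. Against proliferating cells 2 of 18696 genes differed (0.0107%), both with a larger change in senescent cells, and 685 had an unadjusted p under 0.05. Leaving out 1 library gave 0 to 2 genes. They were SLC14A1, which rose in senescent cells by 0.79 ± 0.11 and stood at -0.11 ± 0.11 in proliferating cells (difference 0.90 ± 0.15, edgeR adjusted p 0.0251), and LMO7, an actin-associated protein, at 0.53 ± 0.075 and -0.045 ± 0.071 (difference 0.58 ± 0.10, adjusted p 0.0283). Both held their calls with the correction (0.00464 for each). DESeq2 called 21 genes in this comparison and edgeR with no filter on low counts 20.

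Against digoxin-treated cells 46 genes differed (0.246%), 43 with a more positive (0.23%) and 3 with a more negative change in vehicle cells (0.016%), 8 were called with the correction (0.0428%), and 2 to 27 without 1 library. The more negative ones include MEG9, a long noncoding RNA, and ANPEP, and both lost the call of the difference with the correction (0.0897 and 0.0821). ANPEP had a log2 change of -0.63 ± 0.10 in vehicle cells and of -0.031 ± 0.10 with digoxin and 0.21 ± 0.10 with ouabain. Its difference from ouabain was -0.84 ± 0.14 (edgeR adjusted p 0.00254, 8.22e-04 with the correction). That from proliferating cells was -0.66 ± 0.14 (0.0795, and 0.0393 with the correction). Against ouabain-treated cells 28 genes differed (0.15%), 16 more positive (0.0856%) and 12 more negative (0.0642%) in vehicle cells, 37 with the correction (0.198%) and 8 to 20 without 1 library. NFKBIZ was among the genes that differed from both drugs: its log2 change was -0.44 ± 0.10 in vehicle cells, -1.30 ± 0.10 with digoxin and -1.36 ± 0.10 with ouabain, with differences of 0.86 ± 0.14 (adjusted p 0.00444) and 0.92 ± 0.14 (0.00129) that held with the correction (0.00242 and 8.22e-04). EDN1, the vasoconstrictor endothelin, stood at 0.072 ± 0.11 in vehicle cells, -0.68 ± 0.089 with digoxin and -0.80 ± 0.091 with ouabain.

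The libraries held the defining markers of fibroblasts. COL1A1, COL1A2, VIM and THY1 had 293 to 5847 CPM of the whole library in the 6 libraries, while PDGFRB had 31.9 to 37.6 CPM and S100A4 1.07 to 1.52 CPM. Of 10 fibroblast markers 1 changed, P4HB, which had a log2 change of -0.20 ± 0.057 and lost its call with the correction (0.895) and without any 1 library. The epithelial markers KRT14 and SFTPC, and the leukocyte markers CD3E and TYROBP, had 0 counts in all 6 libraries, and KRT5 and CDH5 had 1. The endothelial markers TEK and VWF had 613 and 198 counts in the 6 libraries together, and the leukocyte markers LYZ and CD68 135 and 92. KRT8, an epithelial keratin, had 4.12 to 6.48 CPM. KRT18, another, had 20.1 to 33.4 CPM and, with the 3 other epithelial markers tested, did not pass the test (adjusted p 0.0568). Of 6 smooth muscle and pericyte markers 1 rose, RGS5, from 14.7, 15.7 and 16.4 CPM to 24.1, 21.1 and 23.1 CPM, a call it lost with the correction (0.268), and of 5 leukocyte markers tested 1 fell, CD14, which had 8 counts in the 6 libraries together. The summed level of the tested markers, without and then with the inhibitor, was 9422 to 9522 and 9671 to 9698 CPM for fibroblasts, 193 to 203 and 191 to 199 CPM for smooth muscle, 31.6 to 37.6 and 23.9 to 30.3 CPM for epithelium, 6.03 to 8.13 and 6.55 to 8.21 CPM for endothelium, and 2.13 to 2.61 and 1.58 to 2.37 CPM for leukocytes. The sums of fibroblast and epithelial markers did not overlap between the groups, and their part in the results was not tested. In bulk RNA, fewer cells of a kind and less RNA per cell cannot be told apart.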

How the data were processed

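The authors deposited a table of whole-number counts per gene, 1 column per library. Per the labels' protocols, total RNA came from a TRIzol and RNeasy extraction and went into stranded messenger RNA libraries. Per the submitters' processing notes, the tools were TopHat2 2.0.11 and featureCounts and the build hg19, with strand setting and annotation release not given in the sources used here. Reads of overlapping antisense genes and of near-identical copies may therefore be split in ways that cannot be seen in the counts.

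Counts of all 36 libraries were fitted with edgeR 4.0.16 (limma 3.58.1, R 4.3.3) with 12 group means, TMM scaling and filterByExpr by group, and tested two-sided with the quasi-likelihood F test and Benjamini-Hochberg adjustment over all genes at 0.05. Differences between inhibitor effects are interaction contrasts in the same fit. CPM values are counts scaled to the TMM-adjusted library size, or to the plain size where the whole library is named, log2 changes are fitted values, and ± after a log2 change is its standard error (SE). GC content and length come from the longest transcript of GENCODE 29, which also gave gene names. In the corrected fit, lowess trends (span 0.3) of each library with GC content and log2 length entered as offsets. The labels do not say whether replicate numbers pair the libraries. The fit with them as a block was an alternative, as were DESeq2 1.42.0, other scalings and filters, and the fit without each library in turn. The script was tested on simulated data with known changes.

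The members and the 47 gene lists were chosen with earlier results of these data known. Genes were named by a rule, which began with a panel of death, senescence and inflammation genes. It added the 12 largest changes and 6 smallest p per direction among called genes of at least 5 CPM. The 12 largest changes were taken only from genes with no overlap between the groups. Up to 4 called members of at least 1 CPM per list, and the 4 largest differences per direction and interaction, were also named. Other list members named without a call, and EREG, CXCL5, CCL20, SKI, IDI1, SCD, FADS2, NFKBIA, PKM, SLC2A1 and CD14, were named after their values were seen. In the lists, 10 genes could not be matched to the table. Results for some genes are not reported here.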

Additional observations from a re-analysis of the deposited data

Results flagged for a closer look

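The inhibitor effect in senescent vehicle cells differed from that in another kind of cell, by the interaction test in edgeR at an adjusted p of 0.05, for these genes among those named by the rule. Values are differences of log2 changes, vehicle minus the other kind. Against proliferating cells these were LMO7 (0.58 ± 0.10) and SLC14A1 (0.90 ± 0.15).

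Against digoxin-treated cells, MCTP2 (1.33 ± 0.31), CHRM2 (1.01 ± 0.22), ZBTB10 (0.90 ± 0.17) and NFKBIZ (0.86 ± 0.14) changed more positively in vehicle cells. MCTP2 stood at 0.60 ± 0.17 in vehicle and -0.73 ± 0.25 in digoxin-treated cells, and CHRM2, a muscarinic receptor, at 0.75 ± 0.11 and -0.27 ± 0.19. MEG9 (-1.13 ± 0.25) and ANPEP (-0.60 ± 0.14) changed more negatively. With the correction for GC content and length, the difference held for NFKBIZ (adjusted p 0.00242) and lost its call for MCTP2 (0.0897), CHRM2 (0.0623), ZBTB10 (0.0615), MEG9 (0.0897) and ANPEP (0.0821).

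Against ouabain-treated cells, a gene with no name in the annotation (ENSG00000262758, 1.04 ± 0.22), NFKBIZ (0.92 ± 0.14), LRCH2 (0.90 ± 0.12) and EDN1 (0.87 ± 0.14) changed more positively, and RNF227 (-1.47 ± 0.31), KLF4 (-1.39 ± 0.30) and HBEGF (-0.90 ± 0.20) more negatively. KLF4, a transcription factor, stood at 0.10 ± 0.25 in vehicle and 1.49 ± 0.16 in ouabain-treated cells, and HBEGF, a ligand of the EGF receptor, at -0.092 ± 0.14 and 0.81 ± 0.14. All 7 differences held with the correction. ANPEP also changed more negatively against ouabain-treated cells (-0.84 ± 0.14), and this held with the correction (edgeR adjusted p 8.22e-04).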

How the results depend on the processing

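The count of 1385 called genes (985 higher, 400 lower) moved by over 1.5 times, in total or in 1 direction, under these settings: no filter on low counts gave 668 (388 higher), library size alone 482 higher and 657 lower, and a filter at 5 CPM 749 lower. The GC and length correction gave 301 (230 and 71), and the replicate block together with it 280 (215 and 65). A fit of only the 6 libraries gave 5562 (2909 and 2653), and 2 settings chosen after seeing the data, the 36 h libraries only and the 6 libraries with the correction, gave 3146 (2019 and 1127) and 2997 (1578 and 1419). Leaving out 1 library gave 527 to 870 in all, 441 to 670 higher and 86 to 200 lower. DESeq2 called 1870. The cause of these moves was not tested.

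The difference from proliferating cells, 2 genes, gave 1 with RLE scaling and 1 with library size alone, 20 with no filter, 5 at 5 CPM, 5 with block and correction, 6 with the correction, 26 in its own groups, 21 with DESeq2 and 0 to 2 without 1 library. That from digoxin, 46 genes, gave 11 with RLE, 12 with library size, 22 with no filter, 7 with block and correction, 8 with the correction, 646 in its own groups, 129 with DESeq2 and 2 to 27 without 1 library. That from ouabain, 28 genes, gave 86 with no filter, 17 with the block, 644 in its own groups, 63 with DESeq2 and 8 to 20 without 1 library. The GC slope difference of -0.14 was -0.17 at 5 CPM and -0.149 to -0.130 without 1 library.

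Same-numbered libraries did not deviate together (r of deviations 0.00786, 0.0166 and -0.0145). With replicates as alike as these, such values cannot show whether the replicate numbers pair the libraries, and the labels do not say. The replicate block gave 1330 calls (958 higher, 372 lower). Of 112 named called genes, 58 lost their call with the GC correction, 29 with no filter, 19 with library size alone and 25 to 40 without 1 library. In the fit of the 6 libraries, 18 lipid synthesis genes rose and 3 fell (23 and 1 with the correction), and 11 p53 targets rose and 7 fell (9 and 1). HRAS (0.074, edgeR adjusted p 0.00899) and LAMP2 (-0.0026, 0.965) turned in sign in the 6 libraries with the correction. HRAS, not called in the fit of all 36 libraries, was thus called higher there, and LAMP2 was not called.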
